A study of Mus musculus with 6 samples.

Results

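The genes described here are 38 genes of glycolysis and of the response to low oxygen, listed by name: 26 that carry glucose to lactate or govern that route, and 12 known as targets or sensors of the hypoxia-inducible factors (HIF). They were measured in macrophages grown from mouse bone marrow, to compare mice without Bach1, a repressor of transcription that senses heme, with wild-type (WT) mice. All 38 had at least 1 probe on the array, 63 probes in all, and 37 of them were among the 15733 genes tested. The remaining one, Egln1, did not pass the filter for signal.

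The knockout (KO) group held 3 Bach1 KO mice, labelled 947, 948 and 949, and the control group held 3 wild-type mice, labelled 1, 2 and 3. All were C57BL/6 mice of 11 weeks, with 2 males and 1 female in each genotype, the females being KO 949 and WT 3. The labels do not describe the Bach1 allele, and the cells of every mouse had been kept for 5 days at 37 °C with 5% CO2 in medium with 10% serum and GM-CSF at 10 ng/mL, a growth factor for granulocytes and macrophages under which marrow yields macrophages together with dendritic-type cells. Each mouse gave 1 array. KO 947 lay on the slide that also held the 3 WT arrays, and KO 948 and 949 lay on another, so slide and mouse cannot be told apart among the KO arrays.

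Glycolysis turns glucose into pyruvate in the cytosol, and activated macrophages are known to rely on it heavily and to export much of the product as lactate. Where oxygen is scarce, the HIF prolyl hydroxylases stop marking the HIF alpha subunits for degradation, and HIF then binds short DNA sites and raises the genes of glucose uptake, glycolysis, lactate export, mitophagy and vessel growth. Because the genes are shared between both programmes, they are often read together as a sign of how a cell makes its energy. Bach1 binds other DNA sites, the Maf recognition elements of genes for heme, iron and oxidant handling.

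Each level is a probe's log2 signal minus its array's 75th percentile on the log2 scale, and each difference is the KO mean less the WT mean of such levels, with the standard error (SE) of the fit. A gene was called when its adjusted p in limma, a linear model fitted across all genes, was under 0.05. On the KO arrays 62.5% to 65.1% of spots were well above background and on the WT arrays 70.3% to 73.2%, and no spot was saturated. The single Bach1 probe read 1.45, 2.00 and 2.23 in KO 947, 948 and 949 and 2.21, 2.48 and 2.59 in WT 1, 2 and 3, a difference that was not called (adjusted p = 0.262), and whether it lies in the deleted part is not given in the labels. Hmox1, the heme-degrading enzyme that Bach1 is known to repress, was higher in KO by 2.14 ± 0.25 (adjusted p = 0.0114).

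The main result was that none of the 37 members measured was called between KO and WT macrophages, while 3.41% of all genes tested were. At an unadjusted p under 0.05, 3 members were higher in KO (Pdk1, Ankrd37 and P4ha1), where 8.86% of all genes were, and 4 were lower (Eno2, Ldhb, Slc16a1 and Adm), where 11.6% of all genes were. The 3 KO arrays lay wholly above the 3 WT arrays in 4 members and wholly below them in 5, against 13.4% and 13.5% of all genes. Over the 37 members the median difference was 0.06, against -0.01 over all genes tested. Differences ran from -0.83 for Eno2 to 0.88 for Ankrd37. These counts over the members are near or below the shares of all genes.

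The width of the intervals shows how large a difference the fit without the slide leaves possible. The 95% interval of the difference lay wholly between -1 and 1, that is within 2-fold either way, in 25 of the 37 members and in 67.9% of all genes. It lay wholly between -0.5 and 0.5 in 13 members and in 15.7% of all genes. These intervals do not take in the slide. Blocking on it, which leaves KO 947 alone to set against WT, gave -0.66 for Slc16a3 and -1.54 for Ddit4. Both values lie outside the intervals of these members (-0.60 to 2.26 and -1.49 to 0.70). The median spread within a genotype was 0.18 (SD) over the members and 0.25 over all genes.

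**Figure D1:**
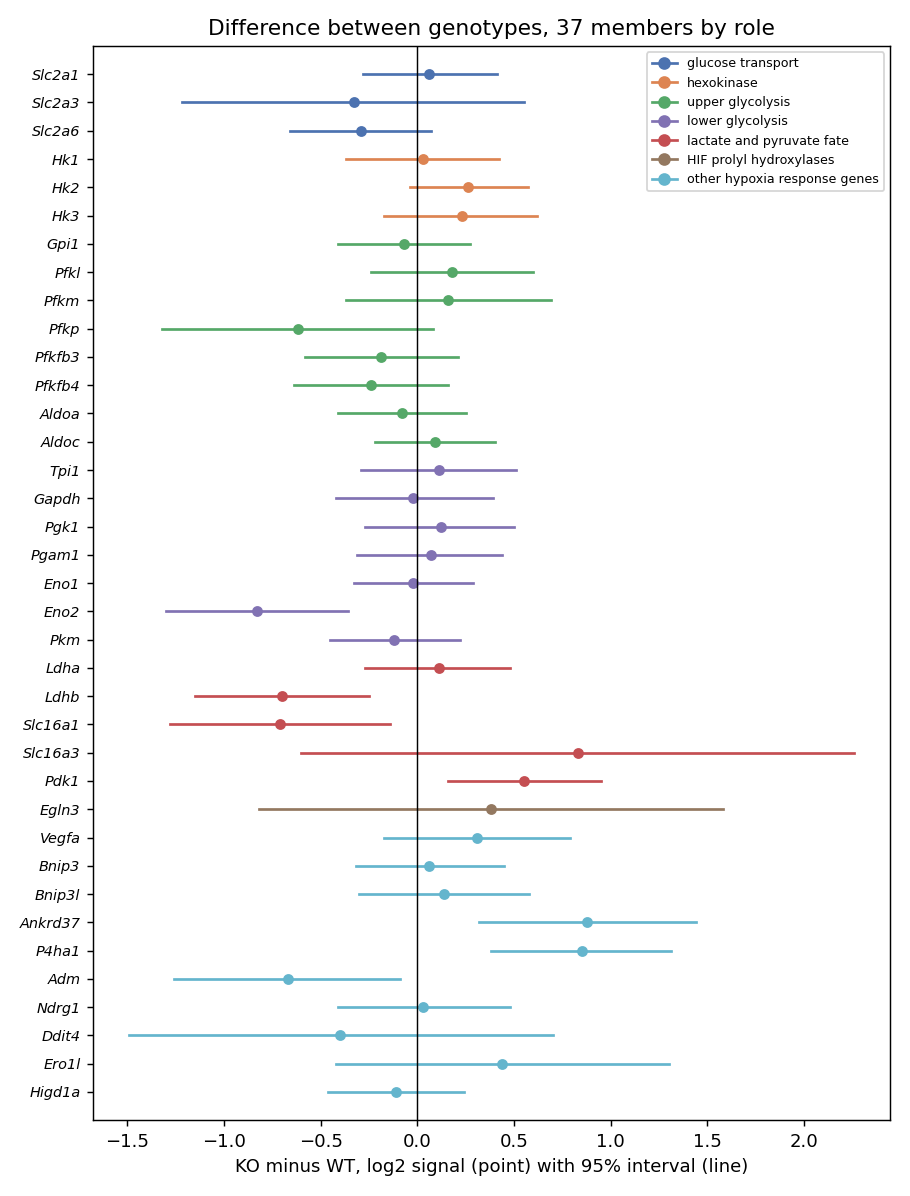
Difference in log2 signal, KO minus WT, for the 37 members measured (points) with 95% intervals (lines), coloured by role. Intervals of Eno2, Ldhb, Slc16a1, Pdk1, Ankrd37, P4ha1 and Adm do not include 0, the widest is that of Slc16a3 (-0.60 to 2.26), and no member passed the adjusted threshold.

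Glucose enters through facilitative transporters. Slc2a1 (GLUT1), the main transporter of activated macrophages, differed by 0.06 ± 0.15. Slc2a6 (GLUT6), a transporter of myeloid cells, read 5.03, 4.77 and 4.86 in KO 947, 948 and 949 and 5.14, 5.06 and 5.33 in WT 1, 2 and 3. Every KO array was below every WT array, by a mean difference of -0.29 ± 0.15 that was not called (adjusted p = 0.337). The other, dimmer probe of Slc2a6 gave -0.26, but there the genotypes overlapped. It read 2.23, 1.73 and 1.29 in KO 947, 948 and 949 and 2.07, 1.81 and 2.16 in WT 1, 2 and 3. Slc2a3 (GLUT3), a high-affinity transporter, read -1.87, -2.04 and -2.56 in KO 947, 948 and 949 and -1.82, -2.53 and -1.13 in WT 1, 2 and 3. Its genotypes overlapped, the WT arrays alone spanning more than 1 log2 unit, and the difference was -0.33 ± 0.37.

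Hexokinases then phosphorylate glucose and hold it in the cell. Hk2, the inducible form that HIF is known to raise, read 4.40, 4.35 and 4.41 in KO 947, 948 and 949 and 4.16, 4.09 and 4.11 in WT 1, 2 and 3. Arrays of each genotype lay close together and did not overlap, but the difference of 0.26 ± 0.13 was not called (adjusted p = 0.307). Hk1 read 4.64, 4.92 and 5.11 in the KO mice in the same order and 4.91, 4.83 and 4.84 in the WT mice (difference 0.03 ± 0.17). Hk3, the form of myeloid cells, differed by 0.23 ± 0.17.

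The enzymes of upper glycolysis include phosphofructokinase, the main control point of the route, and the bifunctional enzymes that make or remove its activator fructose 2,6-bisphosphate. The 8 members of this group differed by -0.62 to 0.18. Pfkp, the platelet-type phosphofructokinase, read 2.47, 1.62 and 1.49 in KO 947, 948 and 949 and 2.20, 2.54 and 2.71 in WT 1, 2 and 3. KO 948 and 949 were below all WT arrays and KO 947 was among them, for a difference of -0.62 ± 0.29 (adjusted p = 0.293). The second, dimmer probe of Pfkp gave -0.01, and there KO 947 had the lowest of the 6 values. Pfkfb4, one of the bifunctional enzymes, read 3.44, 3.90 and 3.73 in KO 947, 948 and 949 and 3.98, 3.82 and 3.99 in WT 1, 2 and 3, a difference of -0.24 ± 0.17. The liver and muscle phosphofructokinases Pfkl and Pfkm differed by 0.18 ± 0.18 and 0.16 ± 0.22. Pfkfb3, the bifunctional enzyme that favours making the activator, differed by -0.19 ± 0.17.

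Lower glycolysis yields the ATP, and 6 of its 7 members had small differences. Tpi1, Gapdh, Pgk1, Pgam1, Eno1 and Pkm, which catalyse its successive steps, differed by -0.12 (Pkm) to 0.12 (Pgk1), with SEs of 0.13 to 0.17. Aldoa, Aldoc and Gpi1, the aldolases and the isomerase just upstream, differed by -0.08 ± 0.14, 0.09 ± 0.13 and -0.07 ± 0.14. Gapdh, often used as a reference gene, had 7 probes above background, whose differences ran from -0.02 to 0.20. The exception in size was Eno2, the neuron-type enolase, also known as a HIF target. It read -1.17, -1.79 and -1.66 in KO 947, 948 and 949 and -0.69, -0.81 and -0.63 in WT 1, 2 and 3. All KO arrays were below all WT arrays, the mean being 1.77-fold lower in KO (difference -0.83 ± 0.20), which missed the threshold (adjusted p = 0.0775). Blocking on the slide, which leaves KO 947 alone to set against WT, gave a difference of -0.46. Without KO 947 the difference was -1.01 (adjusted p = 0.0298). In that fit KO and WT arrays lay on different slides, so genotype and slide cannot be told apart. Eno1, the enolase of most tissues, read 6.73, 6.72 and 6.74 in KO 947, 948 and 949 and 6.83, 6.72 and 6.70 in WT 1, 2 and 3 (difference -0.02 ± 0.13).

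Pyruvate is next either reduced to lactate and exported or passed to the mitochondria. Ldha, the lactate dehydrogenase subunit that favours lactate, differed by 0.11 ± 0.16, and its 3 probes gave 0.11 to 0.26. Ldhb, the subunit that favours the return of lactate to pyruvate, read 4.29, 3.72 and 4.12 in KO 947, 948 and 949 and 4.85, 4.78 and 4.60 in WT 1, 2 and 3. The KO arrays were all lower, 1.62-fold in the mean (difference -0.70 ± 0.19), without a call (adjusted p = 0.107). Slc16a1 (MCT1), a lactate transporter that works in both directions, read -2.72, -2.93 and -2.90 in KO 947, 948 and 949 and -1.66, -2.22 and -2.55 in WT 1, 2 and 3. It was lower on every KO array, with a difference of -0.71 ± 0.24 (adjusted p = 0.165). Pdk1, a kinase that shuts pyruvate out of the citric acid cycle by blocking pyruvate dehydrogenase, read 1.98, 1.85 and 1.84 in KO 947, 948 and 949 and 1.09, 1.55 and 1.36 in WT 1, 2 and 3. Every KO array was above every WT array (difference 0.55 ± 0.17, adjusted p = 0.131).

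Slc16a3 (MCT4), the exporter of lactate from glycolytic cells, had the widest interval of all members. It read 2.55, 4.87 and 4.70 in KO 947, 948 and 949 and 2.97, 3.13 and 3.54 in WT 1, 2 and 3. KO 947 was below all WT arrays and KO 948 and 949 above them all, so the mean difference of 0.83 ± 0.60 (adjusted p = 0.487) describes neither. Its second probe read 2.38, 4.70 and 4.58 in KO 947, 948 and 949 and 2.88, 3.00 and 3.42 in WT 1, 2 and 3, the same order of arrays. Blocking on the slide gave -0.66. Without KO 947 the difference was 1.58 (adjusted p = 0.0265), but there too genotype and slide cannot be told apart.

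**Figure D2:**
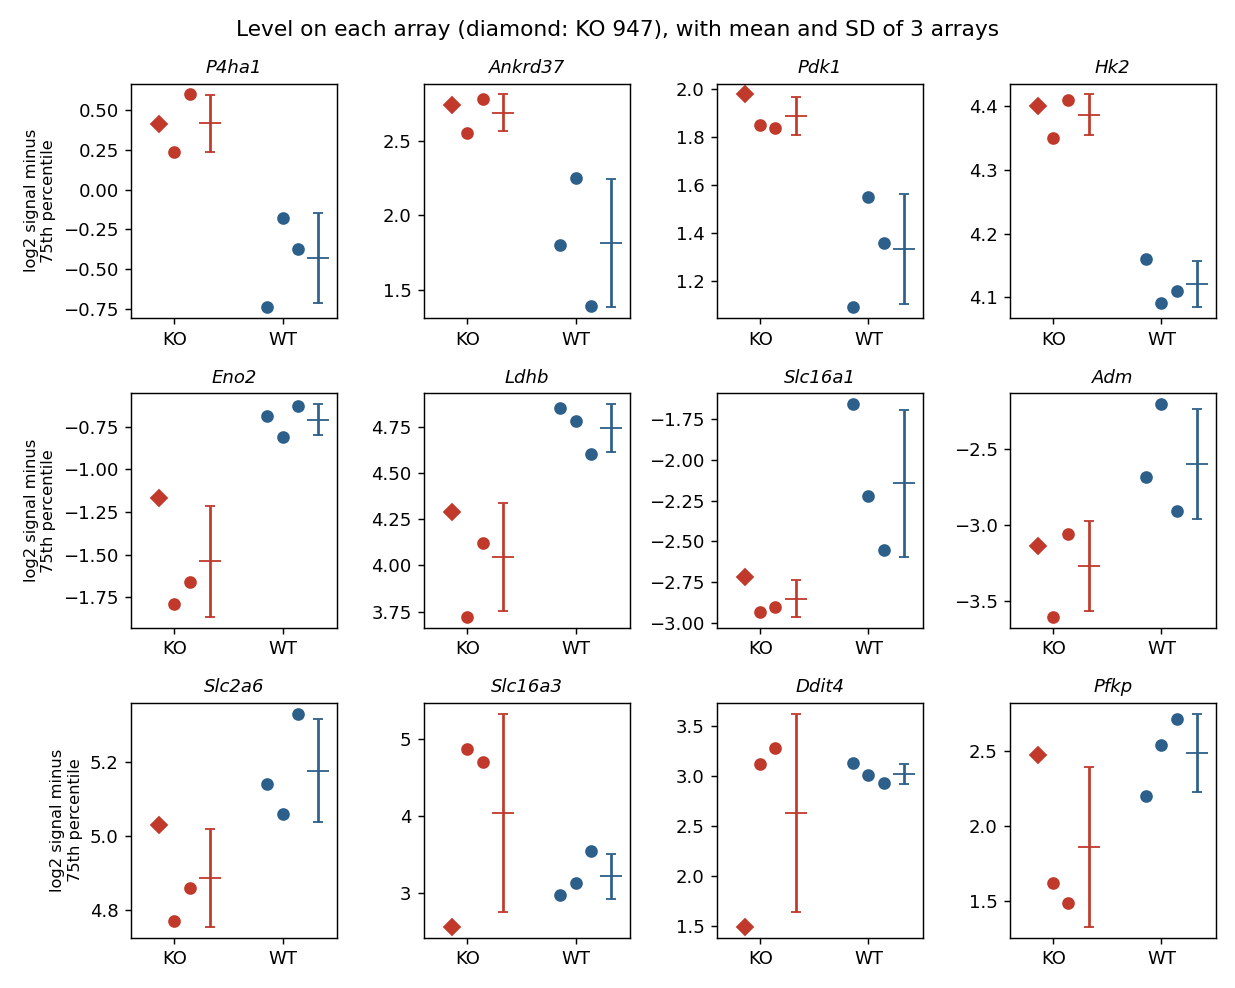
Log2 signal over the 75th percentile, per array, for 12 members, with 3 KO arrays (red, KO 947 as a diamond) left of 3 WT arrays (blue) and the mean and SD of each genotype beside them; each panel has its own vertical scale. In the 9 members from P4ha1 to Slc2a6 the genotypes do not overlap, while in Slc16a3 and Ddit4 KO 947 lies below all other arrays, and in Pfkp it lies among the WT arrays.

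HIF prolyl hydroxylases sense oxygen, and both that are listed are themselves known HIF targets. The only probe of Egln1 (PHD2), the main one of them, was well above background on 0 of 3 KO arrays and 2 of 3 WT arrays, so it was not tested. It read -5.75, -5.83 and -6.01 in KO 947, 948 and 949 and -5.87, -5.27 and -3.61 in WT 1, 2 and 3, where the high value is the one of WT 3. Egln3 (PHD3) read -1.42, -1.28 and -1.62 in KO 947, 948 and 949 and -3.06, -1.04 and -1.36 in WT 1, 2 and 3. WT 1 stood below the other 5 arrays, and the second probe of Egln3 put it lowest as well, at -4.77. The difference of Egln3 was 0.38 ± 0.50 with all arrays (adjusted p = 0.715) and -0.24 without WT 1.

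Among the other hypoxia response genes, 7 of 10 differences were above 0, with a median of 0.10. Over all genes tested, 7740 of 15733 were above 0. Of 32 further hypoxia response genes measured outside the members, 14 were above 0, with a median of -0.10. P4ha1, a collagen prolyl hydroxylase subunit, read 0.41, 0.24 and 0.60 in KO 947, 948 and 949 and -0.74, -0.18 and -0.37 in WT 1, 2 and 3. All KO arrays were higher, 1.80-fold in the mean (difference 0.85 ± 0.20, adjusted p = 0.0723), the lowest adjusted p among the members. Its second, dimmer probe read -1.61, -1.15 and -0.68 in KO 947, 948 and 949 and -1.20, -1.50 and -1.72 in WT 1, 2 and 3. There the genotypes overlapped, and the difference was 0.33. Ankrd37, an ankyrin-repeat protein and a direct HIF target, read 2.74, 2.55 and 2.78 in KO 947, 948 and 949 and 1.80, 2.25 and 1.39 in WT 1, 2 and 3. It was higher on every KO array by a mean of 1.84-fold (difference 0.88 ± 0.24), which was not called (adjusted p = 0.104).

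Adm, the vasodilator peptide adrenomedullin, lay the other way. It read -3.14, -3.61 and -3.06 in KO 947, 948 and 949 and -2.68, -2.20 and -2.91 in WT 1, 2 and 3, with no overlap and a difference of -0.67 ± 0.24 (adjusted p = 0.186). Vegfa, the angiogenic growth factor, differed by 0.31 ± 0.20 on one probe and 0.06 on the other. Bnip3 and Bnip3l, receptors that mark mitochondria for autophagy, differed by 0.06 ± 0.16 and 0.14 ± 0.18, and the 3 probes of Bnip3 gave 0.06 to 0.48. Ndrg1, a gene induced by lack of oxygen or iron, differed by 0.03 ± 0.19. Ero1l, the oxidase that forms disulphide bonds in the endoplasmic reticulum, differed by 0.44 ± 0.36, and Higd1a, a mitochondrial protein, by -0.11 ± 0.15.

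Ddit4 (REDD1), an inhibitor of mTORC1 signalling under stress, split the KO arrays as Slc16a3 did. It read 1.49, 3.12 and 3.28 in KO 947, 948 and 949 and 3.13, 3.01 and 2.93 in WT 1, 2 and 3. KO 947 was the lowest of the 6 arrays by more than 1 log2 unit, while KO 948 and 949 stood close to WT. The difference was -0.40 ± 0.46 over all arrays (adjusted p = 0.675), 0.17 without KO 947, and -1.54 with the block on slide. With it Ddit4 was the only member called (adjusted p = 0.0471), where 0.534% of all genes were, and that value rests on KO 947 alone. Within the slide of WT and KO 947 fitted on its own it was -1.54 with an adjusted p of 0.0776.

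Set directly against each other, KO 948 and 949 differed from KO 947 by more than 1 log2 unit in 2 of 37 members, Slc16a3 (2.24 ± 0.28, adjusted p = 0.0647) and Ddit4 (1.71 ± 0.20, adjusted p = 0.0591). The next in size were Pfkp (-0.92), Eno2 (-0.56), Slc2a3 (-0.43) and Pfkfb4 (0.37). All these values are of the 1 probe used for each gene, and other probes did not always follow. The second probe gave 2.26 for Slc16a3 but 0.55 for Pfkp. For Vegfa it gave -1.06, where the probe used gave -0.15. No member was called in this comparison, where 0.191% of all genes were, and 4 members had an unadjusted p under 0.05, where 15.9% of all genes did. With probes well above background on all 6 arrays, both Slc16a3 and Ddit4 were called (adjusted p = 0.0432 each). The share of all genes called with that filter was not counted. KO 947 was the lowest of the 6 arrays in 6 members and the highest in 9, against 16.8% and 24.3% of all genes.

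**Figure D3:**
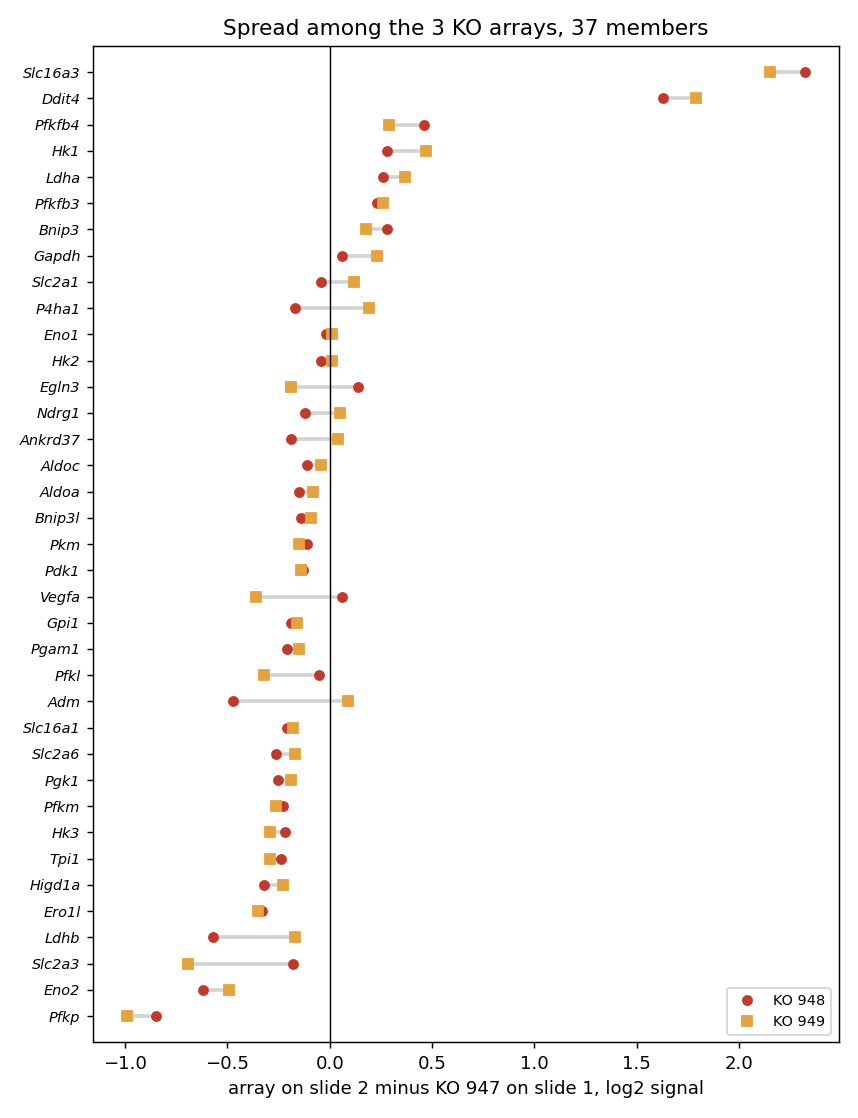
Log2 signal of KO 948 (circles) and KO 949 (squares) minus that of KO 947 for the 37 members, ordered by the mean of both. Slc16a3 and Ddit4 stand apart on the right at 1.63 to 2.32, Pfkp is farthest to the left at -0.85 and -0.99, and the 2 arrays of slide 2 lie near each other in most members.

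No member was called between females and males with genotype in the model, where 0.00636% of all genes (1 gene) was, and none of the 37 had an unadjusted p under 0.05, where 2.84% of all genes did. None was called for a genotype difference that depends on sex, where 0.0254% of all genes were. The lowest adjusted p of a member there was 0.640, with 1 female in each genotype.

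A gene can be read by several probes, and 13 members had more than 1 that passed the filter. In 10 of these all probes lay on the same side of 0, and in Gapdh, Gpi1 and Hk1 they fell on both sides, within -0.07 and 0.20. The probes of Slc16a3 gave 0.83 and 0.78, and those of Slc2a6 -0.29 and -0.26. Those of P4ha1 (0.85 and 0.33) and Pfkp (-0.62 and -0.01) differed most.

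**Figure D4:**
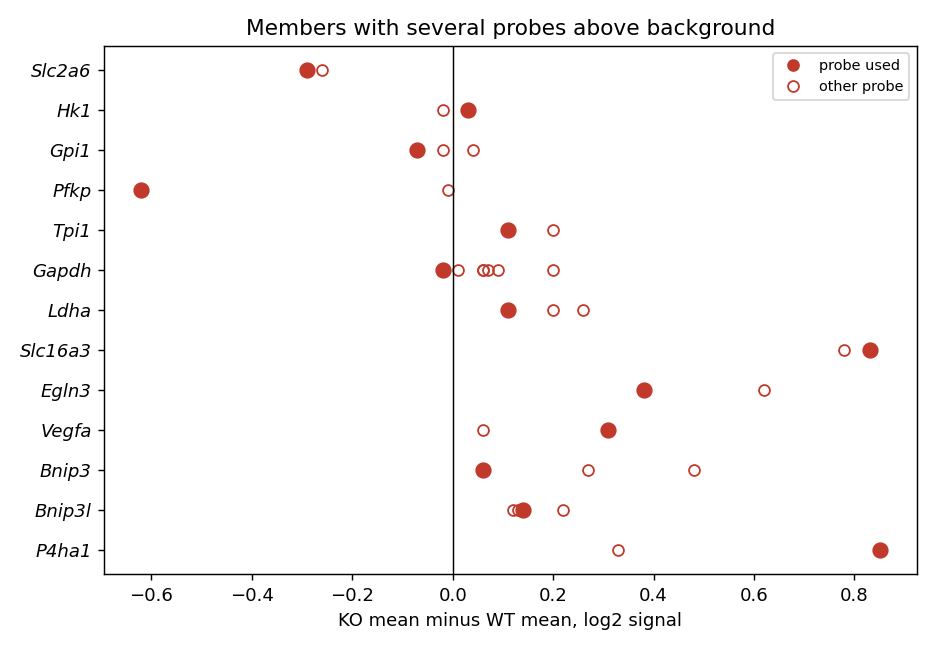
Mean log2 signal of KO minus that of WT for each probe above background of the 13 members with several; filled points are the probes used in the test, open points the others. Probes of Slc16a3 and Slc2a6 lie together, and those of P4ha1 and Pfkp lie apart.

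Other genes of the same pathways were taken from a list of 87, of which 78 were measured. None rose and 2 fell, while 3.41% of all genes were called. Ldhc, the testis-type lactate dehydrogenase subunit, read -2.56, -3.33 and -3.24 in KO 947, 948 and 949 and -0.63, -0.62 and -0.89 in WT 1, 2 and 3. It fell 5.03-fold in KO (difference -2.33 ± 0.24, adjusted p = 0.0103), and was called with the block on slide (-1.85, adjusted p = 0.0425). The call of Ldhc was lost without WT 1 and on the slide with both genotypes fitted alone (adjusted p = 0.0667). Flt1 (VEGF receptor 1), which macrophages are known to carry, read -0.52, -0.06 and -0.11 in KO 947, 948 and 949 and 0.92, 1.11 and 0.54 in WT 1, 2 and 3. It fell 2.12-fold (difference -1.08 ± 0.21, adjusted p = 0.0485), a call that was lost with the block (-1.37, adjusted p = 0.0908) and with any 1 array left out.

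Of the 78, 2 (Cxcl12 and Car12) were well above background on all 3 WT arrays and on no KO array, so they entered the test through the WT arrays alone. Cxcl12, a chemokine that stands in the stromal marker list as well, was at least 4.44-fold lower in KO. Car12, a carbonic anhydrase, was at least 2.71-fold lower in KO, although KO 947 (-5.39) read slightly above WT 3 (-5.41). Both folds are bounds. For them, a KO value below the lowest signal well above background on its array was raised to that signal, and other KO values were kept. Among the other 76 genes an unadjusted p under 0.05 was found for 8 above WT and 9 below it, where 8.86% and 11.6% of all genes had one. Fbp1, the gluconeogenic enzyme that opposes phosphofructokinase, read -2.54, -3.91 and -4.27 in KO 947, 948 and 949 and -4.88, -4.59 and -5.45 in WT 1, 2 and 3 (adjusted p = 0.159).

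The 9 genes of HIF subunits and regulators held no call. Hif1a, the inducible alpha subunit, read 1.68, 1.70 and 1.61 in KO 947, 948 and 949 and 0.97, 0.94 and 1.67 in WT 1, 2 and 3 (difference 0.47 ± 0.22, adjusted p = 0.294). Epas1 (HIF-2 alpha) differed by -0.33 ± 0.17, Arnt, the partner of both, by 0.06 ± 0.27, and Vhl, the ubiquitin ligase subunit that removes them, by -0.51 ± 0.20 (adjusted p = 0.219). Of the 3 genes given next, all chosen after their values were seen, Car9, a carbonic anhydrase and HIF target, read 1.55, 1.61 and 1.64 in KO 947, 948 and 949 and 0.94, 0.89 and 1.06 in WT 1, 2 and 3. It missed the threshold (difference 0.64 ± 0.13, adjusted p = 0.0572), and the difference with the block on slide was 0.59. Car9 passed with scaling to the array median, probes well above background on all 6 arrays, trend and robust, and array weights. In these settings 614, 576, 810 and 3100 of all genes were called, against 537 in the main fit. In every other setting Car9 was not called. Cited2, a HIF-induced inhibitor of HIF transcription, read -1.78, 0.49 and 1.03 in KO 947, 948 and 949 and -0.94, -0.48 and -0.88 in WT 1, 2 and 3. Edn1, the vasoconstrictor endothelin 1, read -6.04, -2.11 and -1.42 in KO 947, 948 and 949 and -3.69, -3.43 and -2.11 in WT 1, 2 and 3. In both genes, which were picked for this pattern, KO 947 was the lowest array of the 6, as in Slc16a3 and Ddit4. The KO 947 value of Edn1 was not well above background.

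The windows around the gene starts were read for the core that HIF binds, ACGTG or GCGTG on either strand. RefSeq (GRCm38.p6) gave 49 windows of 300 bases, from 250 before to 50 after a start, for 35 of the 38 members, and none for Slc2a3, Ndrg1 and Bnip3l. A core stood in 32 of these 35 members (91.4%), against 46.7% of all genes with a window, and in 40 of the 49 windows (81.6%), against 43.8% of all windows. The members' windows were also richer in CG, a pair that each core holds, with a median of 20 CG pairs a window against 7 over all windows, and the part of this in the difference was not tested. Eno2, Gpi1 and Tpi1 had no core. The letters TGANTCA, the core shared by Maf recognition and AP-1 sites, stood in 1 member (2.9%, Aldoa), against 9.0% of all genes, and the same letters preceded by TGC stood in 0 of the 35 members and 0.5% of all genes. A match is only a run of letters and does not show binding.

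Windows are shown for P4ha1 and Ankrd37, the largest differences above 0 without overlap, for Eno2, the largest below 0, for Slc16a3 and Ddit4, which split the KO arrays, and for Ldha, which differed little. They are printed 5′ to 3′ on the strand of the gene, with the cores of either strand in capitals.
P4ha1 chr10:59323046-59323345 (+): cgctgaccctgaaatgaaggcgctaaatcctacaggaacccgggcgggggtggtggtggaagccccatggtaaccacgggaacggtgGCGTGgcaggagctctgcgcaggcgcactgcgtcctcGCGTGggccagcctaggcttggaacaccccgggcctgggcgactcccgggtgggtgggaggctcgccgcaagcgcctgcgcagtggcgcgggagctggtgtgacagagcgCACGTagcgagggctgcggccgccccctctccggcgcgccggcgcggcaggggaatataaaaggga
Eno2 chr6:124769624-124769923 (-): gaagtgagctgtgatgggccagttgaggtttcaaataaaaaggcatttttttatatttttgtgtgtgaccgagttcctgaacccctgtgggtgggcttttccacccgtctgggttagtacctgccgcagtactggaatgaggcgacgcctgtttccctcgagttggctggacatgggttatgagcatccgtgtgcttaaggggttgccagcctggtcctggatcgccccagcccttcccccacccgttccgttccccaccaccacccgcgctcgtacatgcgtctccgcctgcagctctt
Ankrd37 chr8:45999801-46000100 (-): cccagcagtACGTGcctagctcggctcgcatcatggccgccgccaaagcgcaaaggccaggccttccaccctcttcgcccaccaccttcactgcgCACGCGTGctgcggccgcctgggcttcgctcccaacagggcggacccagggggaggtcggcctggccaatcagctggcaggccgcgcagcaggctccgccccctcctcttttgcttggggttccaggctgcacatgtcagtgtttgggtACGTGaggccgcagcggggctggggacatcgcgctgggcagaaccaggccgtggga
Slc16a3 chr11:120948817-120949116 (+): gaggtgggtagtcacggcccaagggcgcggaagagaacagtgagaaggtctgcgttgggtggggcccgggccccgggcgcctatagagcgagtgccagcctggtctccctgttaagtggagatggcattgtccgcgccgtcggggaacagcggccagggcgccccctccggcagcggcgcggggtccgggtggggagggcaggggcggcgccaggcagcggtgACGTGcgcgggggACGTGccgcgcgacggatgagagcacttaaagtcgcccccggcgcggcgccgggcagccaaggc
Ddit4 chr10:59951721-59952020 (-): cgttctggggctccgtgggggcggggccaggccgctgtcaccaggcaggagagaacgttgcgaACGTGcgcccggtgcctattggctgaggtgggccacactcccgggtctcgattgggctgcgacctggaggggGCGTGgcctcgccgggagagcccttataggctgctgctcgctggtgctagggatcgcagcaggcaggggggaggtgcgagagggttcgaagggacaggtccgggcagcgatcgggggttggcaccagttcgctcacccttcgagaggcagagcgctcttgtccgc
Ldha chr7:46845554-46845853 (+): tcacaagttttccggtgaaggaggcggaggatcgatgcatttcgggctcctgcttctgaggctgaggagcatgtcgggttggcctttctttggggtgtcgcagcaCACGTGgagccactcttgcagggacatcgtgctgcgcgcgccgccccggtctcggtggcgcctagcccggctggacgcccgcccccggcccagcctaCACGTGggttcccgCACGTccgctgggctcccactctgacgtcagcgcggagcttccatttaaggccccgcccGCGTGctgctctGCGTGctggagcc

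Ldha held 7 core matches in this window, the most of any member, of which those within CACGTG count on both strands, and differed by 0.11 between the genotypes. Eno2 held none and had one of the largest differences (-0.83). P4ha1 held 3, Ankrd37 held 4, and Slc16a3 and Ddit4 held 2 each. Adm, lower on every KO array, held 2 in its window. With a core in 32 of the 35 members that had a window, its presence could not separate members above 0, below 0 and near 0. Whether the core had a part in any of these differences was not tested.

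The cultures were mixed, and markers of several other cell types differed between the genotypes. In such bulk samples fewer cells of a type and less RNA per cell cannot be told apart. Rises and falls below are calls of the fit without the slide, where 3.41% of all genes were called. With the block on slide, which rests on KO 947 alone, the median difference was 0.32 for macrophage and -0.59 for dendritic cell markers. It was -1.03 for granulocyte, -1.54 for eosinophil, mast cell and basophil, and -3.94 for stromal markers. For red cell markers it was 0.24, and for T and B cell markers -0.25. Macrophage markers averaged 4.76 to 4.93 on the KO arrays and 4.61 to 4.70 on the WT arrays (8 of 9 measured, all well above background on every array), and 1 of them, the mannose receptor Mrc1, rose by 1.07. Without Mrc1 they averaged 4.76 to 4.95 in KO and 4.75 to 4.83 in WT, and Csf1r (-0.20), Cd14 (-0.21) and Fcgr1 (-0.19) lay below 0 without a call. Dendritic cell markers averaged 2.13 to 2.29 in KO and 3.06 to 3.16 in WT, and 5 of 16 measured fell, among them Ccr7 (-2.60). Granulocyte markers averaged 1.60 to 1.93 in KO and 2.52 to 2.89 in WT, and 1 of 9 fell. Markers of eosinophils, mast cells and basophils averaged -2.81 to -1.26 in KO and 0.08 to 1.07 in WT over 10 measured, 6 of them well above background on every array. Without Mcpt8, which was above background on no KO array, they averaged -2.29 to -0.57 in KO and 0.37 to 1.12 in WT, and 2 of 9 fell, while Ear1 (0.20) and Siglecf (0.47) lay above 0 without a call. Stromal markers averaged -4.17 to -3.25 in KO and -1.25 to 1.07 in WT over 8 measured. Without Cxcl12 they averaged -3.71 to -2.93 in KO and -0.99 to 1.62 in WT, and 3 of 7 fell. Red cell markers averaged -2.85 to -1.45 in KO and -2.07 to -1.63 in WT, and those of T and B cells -3.37 to -2.38 in KO and -2.35 to -2.11 in WT, with no call among 3 and 5 measured. The part of these cell types in the lower values of Ldhb, Eno2, Ldhc and Flt1 was not tested.

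The threshold itself depended on the model. With weights estimated for each array, which ran from 0.29 for KO 947 to 6.51 for KO 948, 9 of the 37 members and 3100 of all 15733 genes were called, so that fit leans on a single KO array. With 3 arrays per genotype the number of mice limits the precision of every value above.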

How the data were processed

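RNA from 6 macrophage cultures, 1 per mouse, was amplified and dye-labelled, per the protocols in the labels. The authors deposited spot intensity values extracted with Agilent Feature Extraction (10.7.3.1 per the file headers, 9.1 per the submitters' processing notes), which per the file headers had been corrected for background and spatial trend within an array and not scaled between arrays. A further deposited table gives log2 values of 3215 probes, centred per probe, all of which separate the genotypes; it holds 6 of the members and gives no independent support. No source used here gives its scaling between arrays.

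Here the log2 processed intensity was reduced by the log2 75th percentile of each array's 59305 non-control spots. Outlier spots (0.20% to 0.39%) were dropped and a probe's spots averaged. A probe was kept if 3 or more of 6 arrays had it well above background, and the probe with the highest mean stood for its gene. Through transcript accessions and a RefSeq gene table (GRCm38.p6), 26407 of 55681 probes had a symbol (20014 symbols) and 29274 had none. The comparison used limma 3.58.1 in R 4.3.3 (lmFit, eBayes), two-sided, without covariates, with Benjamini-Hochberg adjustment over 15733 genes. In 35 genes 1 or more values were missing; all members were complete. The fit was tested on simulated data. Replicates are separate mice, and depth has no meaning for arrays, whose number limits precision.

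The members and the lists of pathway genes and markers were chosen with earlier results of these data known. Values on every array were given for members with an unadjusted p under 0.05, with genotypes that do not overlap, among the 6 largest differences between KO 948 and 949 and KO 947, or with the smallest p of their role. Pathway genes were named where called, with up to 4 of the largest at an unadjusted p under 0.05. Of these, 1 is not reported here. Alternatives covered normalization, background correction, filters, slide, sex, probes, eBayes settings, array weights and each array left out. Lists without Mrc1, or without genes well above background on no array of a genotype, were added after seeing the data. Cd68, Ly6g and Hbb-bs were among 11 markers not measured.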

Additional observations from a re-analysis of the deposited data

How the results depend on the processing

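The members called, 0 of 37, became 1 with the slide as a fixed block (Ddit4, which rests on KO 947 alone). They became 1 with eBayes with trend and robust (Ldhb, adjusted p = 0.0417), where all genes called rose from 537 to 810. With array weights 9 were called (Pfkp, Eno2, Ldhb, Slc16a1, Slc16a3, Pdk1, Ankrd37, P4ha1 and Adm), where 3100 of all genes were. Members called ran from 0 to 2 with each array left out. The 2 were Eno2 and Slc16a3 without KO 947, where 900 of all genes were called and genotype and slide cannot be told apart. The 9 members whose genotypes do not overlap became 17 with scaling to the array median, 14 with normexp and quantile normalization, 24 on the slide with both genotypes, where 1 KO array faces 3, 15 with males only, and 11 to 17 with each array left out. For all genes, non-overlap was counted in the main fit alone, so these rises cannot be called particular to the members. Overlap is also less likely where fewer arrays are compared. The median difference of the 37 members, 0.06, became 0.28 with scaling to the array median, where that of all genes became 0.21, -0.02 with males only, 0.00 with array weights, and 0.01 to 0.09 with each array left out. The 2 pathway genes called became 1 with quantile normalization, with the slide as a fixed block, with it as a random one and with sex as a covariate, 0 on the slide with both genotypes, 5 with trend and robust, 17 with array weights, and 0 to 2 with each array left out (0 without WT 1). Without KO 947 the called pair was Ldhc and Cited2. In the comparison of KO 948 and 949 with KO 947, members called went to 1 with scaling to the array median (Ddit4, adjusted p = 0.0431) and 2 with probes well above background on all 6 arrays. The shares of all genes in those 2 settings were not counted. Between KO and WT, 537 of all genes were called in the main fit. Among settings with more than 1 array in each genotype this ran from 77 without WT 1 to 3100 with array weights.

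Direction reversed in Slc2a3 with males only (0.22) and without WT 3 (0.02, against -0.68 to 0.02 over the arrays left out), in Slc16a3 with the slide as a block or alone (-0.66), in Egln3 without WT 1 (-0.24, against -0.24 to 0.77), and in Ddit4 with array weights (0.04) and without KO 947 (0.17, against -0.72 to 0.17). The cause was not tested. Over the 15 members followed singly, 285 tested alternatives kept direction and side of the threshold, 13 became called and 7 reversed. Adjusted p-values of P4ha1 ran from 0.0309 to 0.571 and those of Eno2 from 0.00693 to 0.415. No paired analysis was possible because the genotypes share no replicate numbers. The number of arrays and the dim signal of Egln1 limit what could be seen.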
